A study of Homo sapiens with 27 samples.

Results

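Serine and one-carbon metabolism was followed through 9 genes, chosen by symbol from the 60683 genes listed in every deposited table: PHGDH, PSAT1, PSPH, SHMT1, SHMT2, MTHFD1, MTHFD2, MTHFD1L and ALDH1L2. All 9 were among the 16173 genes that passed the filter on low counts. Poly(A) RNA was sequenced from MCF10DCIS.com, a human breast cell line of the MCF10A family that grows lesions resembling ductal carcinoma in situ, and the 27 libraries were compared across 6 groups. The controls were 7 libraries of cells that received no crystals. Each crystal group had 4 libraries and received calcium oxalate at 0.1 mg/mL in 1 of 5 forms. COM was the monohydrate, grown as plates. The other forms were dihydrates of different shape: DB dumbbells, SPH spheres, TK thick bipyramids and TN thin bipyramids. In every group 500000 cells had been seeded 6 h before the time of addition, and how long the crystals stayed on the cells is not stated in the labels.

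PHGDH, PSAT1 and PSPH carry out the consecutive steps that turn a glycolytic intermediate into serine. SHMT1 in the cytosol and SHMT2 in the mitochondrion split serine into glycine and a one-carbon unit bound to folate. MTHFD2, MTHFD1L and ALDH1L2 process that unit in the mitochondrion and MTHFD1 in the cytosol, where it feeds purine, thymidylate and methionine synthesis. In many cultured cells PSAT1, PSPH, SHMT2 and MTHFD2 are among the known targets of ATF4, the transcription factor of the amino acid response. This list is not complete, so a gene left out of it is not thereby a non-target.

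The deposited names carry serial numbers that fall into 3 runs, called library sets here: 1 to 10 (set 1, 10 libraries), 11 to 22 (set 2, 12 libraries) and 23 to 27 (set 3, 5 libraries). Set 1 held 2 controls, set 2 held 4 and set 3 held 1. COM, DB, SPH and TN each had 2 libraries in set 1, 1 in set 2 and 1 in set 3, and all 4 TK libraries were in set 2. The labels do not say what a run stands for, nor that the libraries came from separate cultures, so the p-values measure the spread between these libraries, which may be technical. Library totals ran from 13115669 to 38672521 expected counts, and the 9 genes had from 1077 to 20768.6 counts per library except PSPH, with 416.42 to 1956.97, and ALDH1L2, with 8 to 35. The mean fragment length was 257.8 to 319.1 nt in set 1 and 215.4 to 247.7 nt in set 3. In set 2 it was 197.6 to 243.2 nt, except in TN C, at 297 nt. All 7 basal and epithelial breast markers exceeded 1 TPM on average over the 27 libraries. So did 2 of 5 leukocyte markers (CD68 at 7.48 and CD14 at 4.67 TPM), 1 of 6 fibroblast markers (COL1A1, 4.43) and 1 of 3 endothelial markers (PECAM1, 2.83). The 5 liver markers summed to 751.03 TPM in TN B, against at most 14.57 TPM in any other library.

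Per transcript length, PHGDH was the most abundant of the 9 genes and ALDH1L2 was close to absent. The deposited TPM (transcript level scaled by length and library) averaged 424 ± 118 (SD, n = 27 libraries) for PHGDH, 269 ± 64.9 for MTHFD2 and 256 ± 36.8 for SHMT2. PSAT1 followed at 161 ± 44.6, MTHFD1 at 128 ± 19.8 and SHMT1 at 87.0 ± 9.52. MTHFD1L averaged 41.2 ± 7.66, PSPH 37.7 ± 10.2 and ALDH1L2 0.259 ± 0.229. The neighbours MTHFD2 and SHMT2, and MTHFD1L and PSPH, differed by less than their spread. ALDH1L2, a mitochondrial enzyme that oxidizes the folate-bound unit to CO2, ranged from 0.05 to 0.96 TPM, so differences between groups were hardly detectable for it at this depth. Named pseudogene copies of PSAT1, PSPH, SHMT1, MTHFD1 and MTHFD2 held at most 3 counts in any library.

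**Figure D1:**
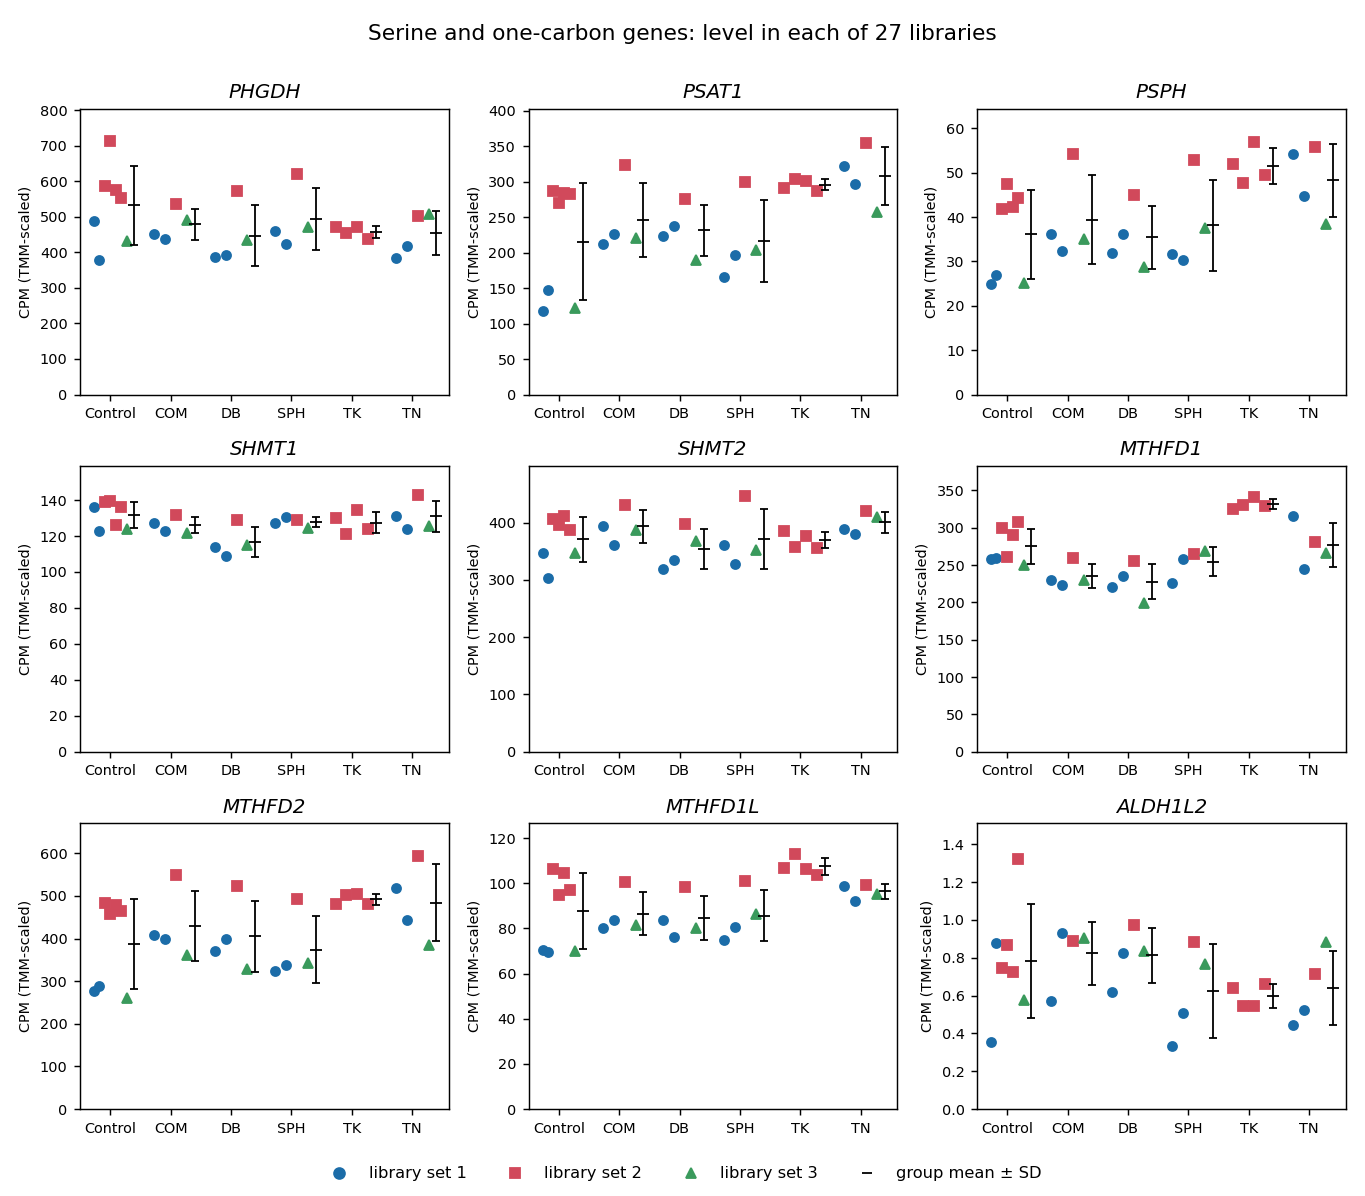
Level of each of the 9 genes in CPM on TMM-scaled library sizes (vertical axes, from 0) in the 27 libraries, by group; marker shape and colour give the library set, and bars give the group mean ± SD. The controls of set 2 lie above those of sets 1 and 3 for PSAT1 (270 to 286 against 117 to 147), PSPH and MTHFD2, and the 4 TK libraries are all of set 2.

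Against the controls, PSAT1, PSPH and MTHFD2 each rose in 3 of 5 forms, and the thin bipyramids, TN, had the most genes that rose. The test was edgeR's quasi-likelihood test on all 27 libraries with the library set as a term, adjusted by Benjamini-Hochberg over all 16173 genes, and a gene passed at an adjusted p under 0.05. In TN 5 of 9 genes rose and none fell, where 6.84% of all genes rose and 4.88% fell. In COM 3 of 9 rose and none fell, where 3.94% of all genes rose and 2.42% fell. In DB 2 rose and 1 fell, where 5.92% of all genes rose and 4.10% fell. In TK 2 rose and 1 fell, where 8.04% of all genes rose and 7.33% fell. In SPH 0 of 9 passed, by edgeR and by DESeq2, where 0.0804% of all genes rose and 0.0309% fell, and 3 had an unadjusted p under 0.05. The median log2 difference of the 9 genes was 0.19 in TN, 0.16 in COM, 0.14 in TK and 0.08 in both DB and SPH, while that of all genes lay between -0.02 and 0.00 in every comparison. Without the set term COM, SPH and TN had 0 of 9 passing, with 1, 0 and 2 genes at an unadjusted p under 0.05 by edgeR, where 3.36%, 0.0433% and 4.30% of all genes passed. DB and TK had 1 each, where 5.66% and 15.9% passed. In bulk RNA, a change in the number of cells that express a gene and a change in RNA per cell cannot be told apart.

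**Figure D2:**
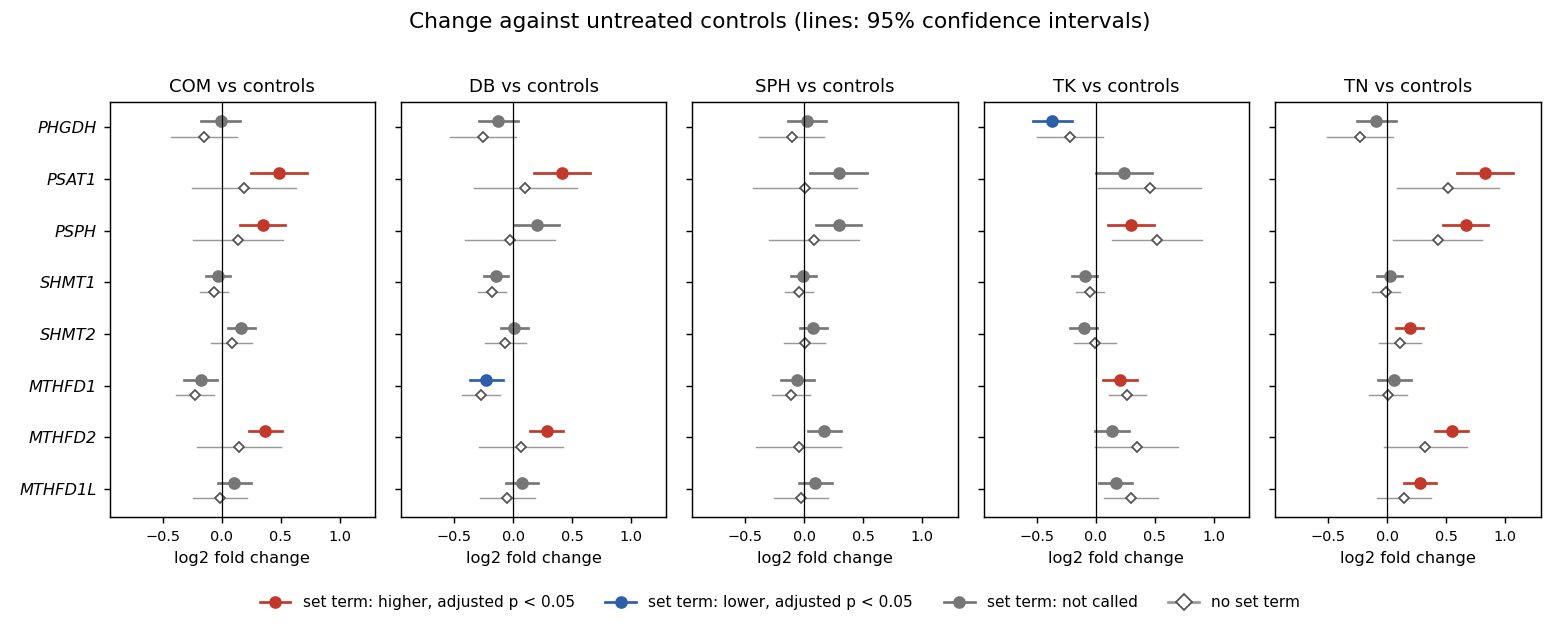
Log2 fold change against the 7 controls (horizontal axes) for the 8 genes other than ALDH1L2 in each crystal form; filled circles come from the fit with the library set as a term, open diamonds from the fit without it, and lines are 95% confidence intervals. PSAT1, PSPH and MTHFD2 are highest in TN with the set term (0.83, 0.67 and 0.55), and PHGDH is lower in TK (-0.37).

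PHGDH, which catalyses the committed step of serine synthesis, rose in no form and fell in TK. Its CPM (counts scaled to library size) in the 4 controls of set 2 were 586, 713, 575 and 552, and in the 2 controls of set 1 490 and 379, with 432 in the control of set 3. The TK libraries gave 472, 454, 470 and 437, all below every control of their own set. PHGDH fell by 0.37 on the log2 scale in TK (SE 0.08, adjusted p = 0.0029), it passed in each of 27 refits that left out 1 library, and within set 2 alone the fall was 0.40 (adjusted p = 0.0042, where 12.5% of all genes passed). Without the set term the TK difference was -0.22 with an adjusted p of 0.29. In the other forms PHGDH did not pass, with log2 differences from -0.12 in DB to 0.02 in SPH, and the COM, DB, SPH and TN libraries overlapped the controls, at 384 to 621 CPM.

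PSAT1 makes phosphoserine from the product of PHGDH and was the gene that varied most of the 8 well-measured ones, by 3.02-fold between its lowest and highest library. The control values were 117 and 147 CPM in set 1, 286, 270, 284 and 282 in set 2, and 122 in set 3. TN gave 322 and 297 CPM in set 1, 354 in set 2 and 258 in set 3, each above every control of its own set. COM gave 213 and 226, 323 and 221 CPM in the same order, again above every control of the set, and DB gave 223 and 238, 276 and 189. The DB library of set 2 lay within the controls of that set. PSAT1 rose 1.78-fold in TN (log2 0.83 ± 0.12 SE, adjusted p = 4.9e-05), 1.40-fold in COM (0.48 ± 0.12, adjusted p = 0.011) and 1.33-fold in DB (0.42 ± 0.12, adjusted p = 0.024). The TN rise was 0.80 without TN B, the library with liver transcripts, and 0.98 without TN C. The COM call ended without COM D, at 0.43 with an adjusted p of 0.052. The DB call ended without any 1 of DB A, DB B, DB D, Control A or Control G, at 0.32 to 0.43. All 4 libraries of SPH and all 4 of TK also lay above every control of their own set, but neither form passed. In SPH, with 166, 197, 299 and 203 CPM, the log2 difference was 0.29 (edgeR adjusted p = 0.66, unadjusted p = 0.0195). In TK, with 291, 304, 301 and 287 CPM, it was 0.24 (edgeR adjusted p = 0.16, unadjusted p = 0.047). Against the controls of set 2 alone, the only set with TK, it was 0.08 (adjusted p = 0.52).

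PSPH, the phosphatase that releases free serine, followed PSAT1 at a lower level. Controls had 24.8 and 27 CPM in set 1, 41.8, 47.4, 42.2 and 44.2 in set 2, and 25.2 in set 3. TN had 54.2, 44.7, 55.9 and 38.4 CPM, and TK had 52.0, 47.6, 56.9 and 49.5. COM had 36.1, 32.3, 54.2 and 35.1 CPM, and SPH had 31.7, 30.4, 52.9 and 37.5. All 4 libraries of each of TN, TK, COM and SPH lay above every control of their own set, and 3 of 4 in DB did. The rise was 0.67 ± 0.09 (log2, SE) in TN (adjusted p = 4.2e-05), 0.35 ± 0.09 in COM (adjusted p = 0.023) and 0.30 ± 0.09 in TK (adjusted p = 0.031). The COM call ended when COM A, COM C, COM D, Control A or Control G was left out, at 0.31 to 0.34. The TK call ended without TK A (0.31) or TK C (0.26), and within set 2 alone the TK difference was 0.23 with an adjusted p of 0.062. In DB and SPH the differences were 0.20 and 0.29 and did not pass (edgeR adjusted p = 0.17 and 0.45). The SPH difference was near that of TK, at an unadjusted edgeR p of 0.0046 against 0.0038.

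MTHFD2, the mitochondrial dehydrogenase and cyclohydrolase of the folate-bound unit, rose in COM, DB and TN. Its controls had 277 and 290 CPM in set 1, 483, 457, 478 and 465 in set 2, and 261 in set 3. TN had 518, 443, 593 and 384 CPM, COM 408, 398, 548 and 362, and DB 370, 400, 523 and 329. Every library of these 3 forms, and of SPH with 323, 339, 493 and 342 CPM, lay above all controls of its own set. MTHFD2 rose by 0.55 ± 0.07 (log2, SE) in TN (adjusted p = 1.1e-05), 0.37 ± 0.07 in COM (adjusted p = 0.0012) and 0.28 ± 0.07 in DB (adjusted p = 0.0094), and each of the 3 passed in all 27 refits that left out 1 library. SPH and TK had differences of 0.17 (adjusted p = 0.66) and 0.14 (adjusted p = 0.19). The 4 TK libraries, at 480 to 504 CPM, overlapped the set 2 controls, and within that set the difference was 0.06.

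MTHFD1L, which makes formate from the product of MTHFD2, passed in TN alone among the 5 forms. Controls had 70.4 and 69.6 CPM in set 1, 106, 94.9, 104 and 96.9 in set 2, and 70.0 in set 3. TN had 98.9 and 92.4 CPM in set 1, 99.4 in set 2 and 95.1 in set 3. TN exceeded the controls of sets 1 and 3 and overlapped those of set 2. The rise was 0.28 ± 0.07 (log2, SE; adjusted p = 0.0074). It was 0.22 with an adjusted p of 0.076 without TN A. The other forms had differences of 0.08 to 0.17 and did not pass.

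SHMT2, the mitochondrial serine hydroxymethyltransferase, also passed in TN. Controls had 347 and 304 CPM in set 1, 406, 395, 411 and 387 in set 2, and 348 in set 3, and TN had 389, 381, 421 and 410. All 4 TN libraries lay above every control of their own set, and so did all 4 of COM, at 394, 361, 430 and 388 CPM. The TN rise was small, 0.19 ± 0.06 (log2, SE; adjusted p = 0.025), and did not pass without TN A, TN D, Control B or Control G, at 0.16 to 0.19. COM had a similar difference of 0.16 (edgeR adjusted p = 0.080, DESeq2 adjusted p = 0.020). In TK all 4 libraries, at 356 to 385 CPM, lay below the set 2 controls, but the difference of -0.10 did not pass (adjusted p = 0.23). SHMT1, the cytosolic counterpart, varied least of the 9 genes as a fold, by 1.31-fold between its lowest and highest library (109 and 143 CPM), and passed in no form. Its difference furthest from 0 was -0.15 in DB (edgeR adjusted p = 0.067, DESeq2 adjusted p = 0.026).

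MTHFD1, the trifunctional cytosolic enzyme, moved in opposite directions in DB and TK. Controls had 258 and 259 CPM in set 1, 300, 261, 290 and 307 in set 2, and 251 in set 3. DB had 220, 236, 255 and 199 CPM, each below every control of its own set. TK had 325, 330, 341 and 329 CPM, each above the highest control. MTHFD1 fell by 0.23 in DB (log2, SE 0.07, adjusted p = 0.033) and rose by 0.21 in TK (SE 0.07, adjusted p = 0.041). Both calls also passed without the set term, at -0.27 and 0.27. They were close to the threshold: the DB fall passed in 16 and the TK rise in 19 of 27 refits that left out 1 library, at -0.25 to -0.18 and 0.18 to 0.25, and within set 2 alone the TK rise was 0.19 with an adjusted p of 0.097. COM gave 223 to 259 CPM, with all 4 libraries below the controls of their own set and a difference of -0.18 that did not pass (adjusted p = 0.13).

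The promoters of MTHFD1L and MTHFD1 are shown because they alone of the 6 matched genes held a searched motif. RefSeq promoter windows on GRCh38.p14, from 250 bases before to 50 bases after a start, matched PHGDH, PSAT1, SHMT1, MTHFD1, MTHFD2 and MTHFD1L with 9 windows. The motifs were TGATGNAA and its form TGATGCAA, cores of the amino acid response element, and the E-box CACGTG, each searched on both strands. Over all 35116 windows of that length, 3.62% held TGATGNAA, 0.866% held TGATGCAA and 7.26% held CACGTG. In the sequences below, on the plus strand and 5′ to 3′, capitals mark the motif.
MTHFD1L, chr6:150866346-150866375: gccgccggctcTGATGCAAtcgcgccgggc
MTHFD1L, chr6:150866320-150866349: cacgcccggctcCACGTGcgcagccggccg
MTHFD1, chr14:64388326-64388355: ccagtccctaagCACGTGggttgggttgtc
The TGATGCAA of MTHFD1L lay 122 or 83 bases before, or 25 bases after, the start in 3 of its 4 windows, and the fourth window held none of the motifs. The CACGTG of MTHFD1 lay 10 bases before its start. A match describes letters only, and no binding was measured here.

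Untreated cells of different library sets also differed in most of the 9 genes. Between the 4 controls of set 2 and the 2 of set 1, 6 of 9 genes were higher in set 2 and none lower, where 13.9% of all genes passed in either direction. The log2 differences were 1.09 for PSAT1 (adjusted p = 4.9e-07), 0.76 for PSPH (7.4e-05), 0.73 for MTHFD2 (3.7e-06), 0.52 for MTHFD1L (0.00013), 0.48 for PHGDH (0.0049) and 0.30 for SHMT2 (0.011). Without Control B, 1 of the 2 set 1 controls, PHGDH (0.31) and SHMT2 (0.20) did not pass. The single control of set 3 has no spread of its own, and that of the other groups was used for it. It was lower than those of set 2 in 5 of 9 genes, where 5.42% of all genes passed, and 0 of 9 differed from set 1, also at an unadjusted p under 0.05, where 0.0371% of all genes passed. Fragment length and the share of mitochondrially encoded counts, 2.562% to 5.209% in set 2 and 4.758% to 7.017% in set 1, moved with the sets. With an offset for the deposited effective lengths all 6 genes still passed. The differences were then 1.06 for PSAT1, 0.69 for PSPH, 0.75 for MTHFD2, 0.50 for MTHFD1L, 0.70 for PHGDH and 0.32 for SHMT2. For MTHFD1 and ALDH1L2, which passed in neither fit, they went from 0.16 to 0.03 and from 0.62 to 1.54. What part fragment length or the mitochondrial share has in the difference between sets was not tested.

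Taken set by set, PSAT1 rose in set 1, where its untreated level was low, in COM, DB and TN, and in set 2 in none of the 5 forms. In set 1, TN raised 4 of 9 genes, where 14.2% of all genes passed: PSAT1 by 1.23 (log2, adjusted p = 1.8e-06), PSPH by 0.93 (5.6e-05), MTHFD2 by 0.76 (2.5e-05) and MTHFD1L by 0.45 (0.0016). In set 2, TN C raised MTHFD2 alone, by 0.33 (adjusted p = 0.038, where 5.05% of all genes passed), and PSAT1 stood at 0.34 (adjusted p = 0.081). COM and DB each raised PSAT1 and MTHFD2 in set 1, where 4.09% and 2.10% of all genes passed: PSAT1 by 0.73 and 0.81, and MTHFD2 by 0.51 and 0.44. In set 2 neither form had a gene that passed, where 0.501% and 0.526% of all genes did, and 2 genes in COM and 0 in DB had an unadjusted p under 0.05. Comparisons in set 2 rest on 1 crystal library each outside TK, whose spread is taken from the other groups. Set 3 holds 1 library of COM, DB, SPH and TN each and 1 control, so its differences have no replicate check. For PSAT1 they were 1.08 in TN, 0.86 in COM, 0.74 in SPH and 0.64 in DB. In SPH, PSAT1 stood at 0.46 in set 1, which did not pass (edgeR adjusted p = 0.16), and at 0.09 in set 2.

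The difference between sets 1 and 2 was itself tested, as an interaction, for the 4 forms present in both. For TN it passed in 4 of 9 genes, where 5.81% of all genes passed: PSAT1 at 0.90 (log2 difference of the 2 effects, adjusted p = 0.0066), PSPH at 0.58 (0.045), MTHFD1L at 0.47 (0.035) and MTHFD2 at 0.43 (0.045). For DB it passed in PSAT1, at 0.83 (adjusted p = 0.049, where 0.0866% of all genes passed). For COM and SPH it passed in 0 of 9, with 2 and 1 genes at an unadjusted p under 0.05, where 0.0247% and 0% of all genes passed. Adjusted over genes and the 4 forms together, PSAT1 in TN (0.020) and DB (0.027) still passed, where 1.14% and 0.124% of all genes did, and the other 3 values did not. The TN value for set 2 rests on TN C, whose fragment length lies in the range of set 1. Among 26 refits that left out 1 other library, PSAT1 in TN passed in all 26, MTHFD1L in 16, PSPH in 12 and MTHFD2 in 6, and PSAT1 in DB in 5.

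**Figure D3:**
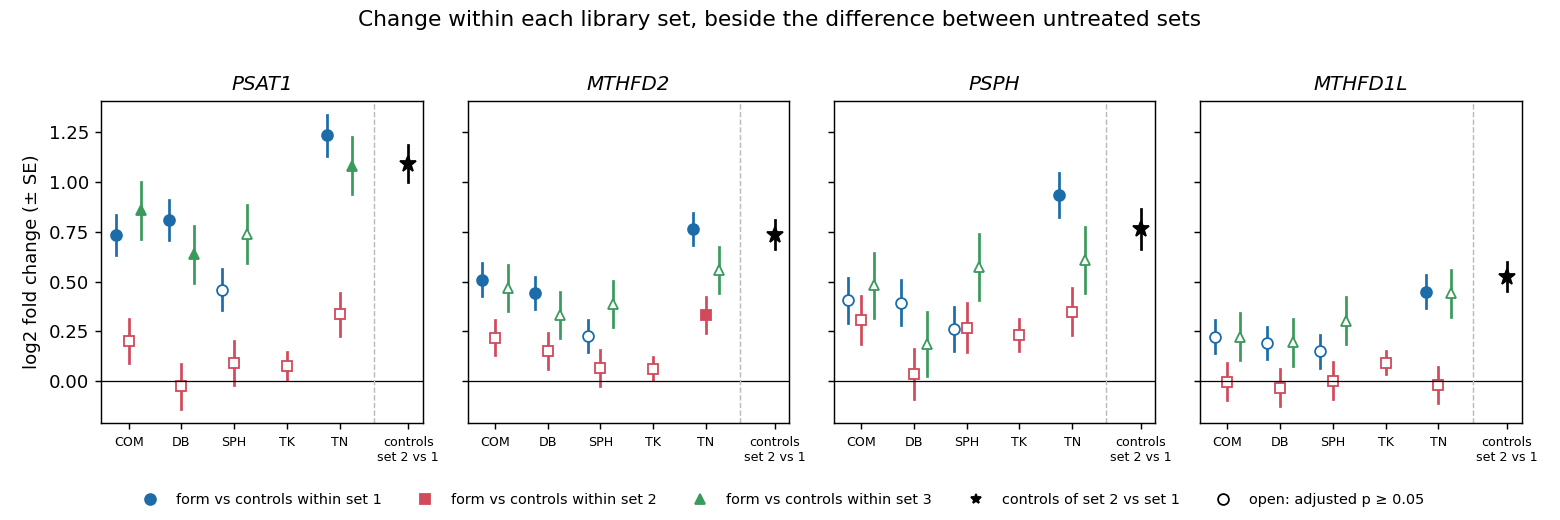
Log2 fold change ± SE (vertical axis) of PSAT1, MTHFD2, PSPH and MTHFD1L for each crystal form against the controls of the same library set, beside the difference between the untreated controls of sets 2 and 1 (stars); open symbols did not pass, and set 3 sets 1 library against 1 control, with the spread of the other groups. PSAT1 in TN is 1.23 in set 1 and 0.34 in set 2, and the untreated difference between those sets is 1.09.

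The 5 forms were given at the same concentration, and 10 pairs of forms were compared for the 9 genes, with p-values adjusted over all genes and all 10 pairs. Of these 90 values 14 passed, in 6 pairs. The thin bipyramids exceeded the other dihydrates in several of the genes. TN exceeded SPH in PSAT1 (log2 0.54, adjusted p = 0.012), MTHFD2 (0.38, 0.0033) and PSPH (0.38, 0.030), where 2.73% of all genes passed. TN exceeded DB in PSPH (0.46, 0.0072), MTHFD1 (0.29, 0.023) and MTHFD2 (0.26, 0.038), where 7.50% passed. With the set term TN exceeded TK, the thick form of the same bipyramid habit, in PSAT1 (0.59, 0.015), MTHFD2 (0.41, 0.0042) and SHMT2 (0.29, 0.012), where 1.21% passed. Within set 2, where TN C stands against the 4 TK libraries, these were 0.26, 0.27 and 0.19 and did not pass (adjusted p = 0.20, 0.094 and 0.27), where 4.84% of all genes did.

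The thick bipyramids, TK, also differed from other forms in MTHFD1, PHGDH and SHMT2 in the fit with the set term. TK exceeded DB in MTHFD1 (0.43, adjusted p = 0.0027), where 11.4% of all genes passed, so 1 of 9 is near the share of all genes. TK exceeded COM in MTHFD1 (0.38, 0.0072) and was lower in PHGDH (-0.36, 0.029) and SHMT2 (-0.27, 0.022), where 9.94% passed. TK was lower than SPH in PHGDH (-0.39, 0.017), where 5.18% passed. TN and COM, a dihydrate and the monohydrate, had no gene among the 9 that passed, where 4.91% of all genes did, with 5 at an unadjusted p under 0.05, and the 95% interval of their difference in PSAT1 ran from 0.09 to 0.61. The pairs DB and COM, SPH and COM, and SPH and DB had none either, where 1.15%, 1.60% and 1.22% of all genes passed, with 1, 1 and 2 genes at an unadjusted p under 0.05, and for PSAT1 the interval of DB against COM ran from -0.33 to 0.19. TK shares a set with only 1 library of each other form. Of the 8 values with TK that passed, 0 passed in edgeR within set 2, where 4.38%, 3.93%, 4.14% and 4.84% of all genes passed against COM, DB, SPH and TN, while 8 kept their direction and 6 had an unadjusted p under 0.05 (adjusted p = 0.062 to 0.36). There MTHFD1 was 0.38 higher in TK than in DB and 0.35 higher than in COM, and PHGDH differed by -0.44 from SPH and -0.23 from COM. The 14 values became 23 without TN C and 8 without TN A.

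Ratios of TPM within a library compare genes per length and need no scaling between libraries. The ratio of PHGDH to PSAT1 was 3.77 ± 1.14 (SD, n = 7) in the controls, 2.08 ± 0.0182 (n = 4) in TK and 1.95 ± 0.646 (n = 4) in TN. The 4 TK ratios lay between 2.06 and 2.10, below every control, of which the lowest was 2.75. The ratio of MTHFD2 to MTHFD1 was 1.41 ± 0.0734 in the 2 controls of set 1, 2.31 ± 0.161 in the 4 of set 2 and 1.46 in that of set 3. In set 1 the ratio was 1.93 and 2.12 in TN, 2.14 and 2.31 in COM, and 2.09 and 2.19 in DB, all above both controls, and 1.57 and 1.72 in SPH. In set 2 the 4 TK ratios, 1.92 to 2.06, lay below the controls, 2.16 to 2.54. The ratio of SHMT2 to SHMT1 was above 1 in every library, at 2.43 to 3.60. No test was run on these ratios.

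**Figure D4:**
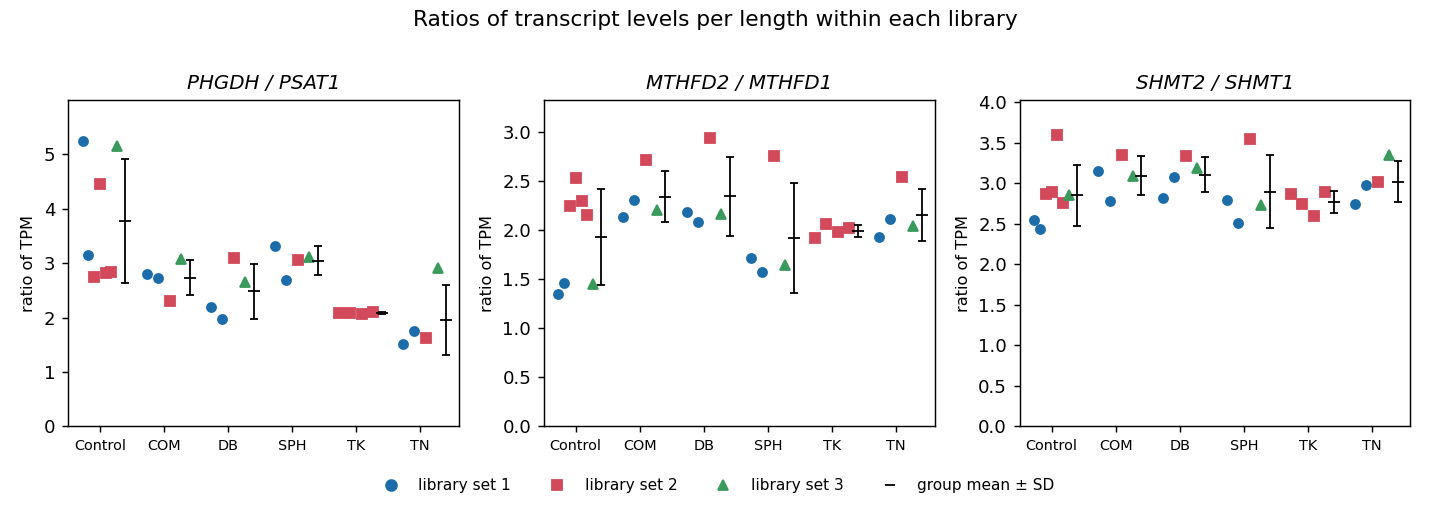
Ratio of deposited TPM within each of the 27 libraries (vertical axes, from 0) for PHGDH over PSAT1, MTHFD2 over MTHFD1 and SHMT2 over SHMT1, by group and library set, with the group mean ± SD. The PHGDH to PSAT1 ratio is 2.75 to 5.25 in the controls and 2.06 to 2.10 in TK, and the MTHFD2 to MTHFD1 ratio is lowest in the controls of sets 1 and 3.

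Over the 27 libraries, the 9 genes did not vary as 1 block. With log2 CPM centred on each set, PSAT1, PSPH, MTHFD2 and MTHFD1L varied together, with Pearson r from 0.757 to 0.954 for their 6 pairs. PHGDH stood apart from them, at -0.16 with PSAT1, -0.14 with MTHFD2, -0.183 with PSPH and -0.218 with MTHFD1L. MTHFD1 was less like them than they were like each other, at 0.112, 0.0765, 0.315 and 0.414 in the same order. The libraries share groups, so these values are descriptions. Among 11126 genes whose mean reached 5 CPM, the 3 most like PSAT1 were MTHFD2 (0.954) and the aminoacyl-tRNA synthetase genes GARS1 (0.945) and MARS1 (0.924). The synthetase genes NARS1 (0.887) and TARS1 (0.88) were, with MTHFD2 (0.881), most like PSPH, and TRMT6 (0.871), NARS1 (0.869) and ARIH2 (0.866) most like MTHFD1L. The genes most like MTHFD2 were PSAT1, GARS1 (0.94) and FAM107B (0.918). Those most like MTHFD1 were MCM4 (0.946), a subunit of the replicative helicase, and the DNA repair genes EXO1 (0.935) and PARP1 (0.934). SHMT2 was most like PYCR1 (0.83), a proline synthesis gene, PCK2 (0.809) and NUPR1 (0.791). PHGDH was most like NSMCE1 (0.902), TRAPPC6A (0.899) and GSS (0.895), glutathione synthetase. SHMT1 (SYMPK 0.761, PPP2R1A 0.74, IFITM2 0.729) and ALDH1L2 (ZNF621 0.747, RHBDD1 0.688, FBXW8 0.669) had no gene above 0.8.

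Among genes that supply serine and glycine, 9 of 10 listed were tested. Of these, 5 rose in TN, 4 in DB, 2 in COM, 2 in TK and 0 in SPH, and none fell, while 6.84%, 5.92%, 3.94%, 8.04% and 0.0804% of all genes rose in those comparisons. The list medians were 0.36, 0.21, 0.22, 0.28 and 0.09. SLC1A4, a neutral amino acid exchanger that carries serine, averaged 11.9 ± 5.87 CPM (SD, n = 7) in the controls and 19.5 ± 2.37 (n = 4) in TN, and rose by 1.19 (log2, adjusted p = 2.3e-05). It rose by 0.85 in DB and 0.81 in COM. SLC6A9, the glycine transporter, rose by 0.77 in TN, 0.67 in DB and 0.66 in COM. SLC38A2 rose in TN (0.41), TK (0.35) and DB (0.28), and SLC1A5 in TN alone (0.43, adjusted p = 0.0028). For SLC1A4 and SLC1A5 the TN effect differed between sets 1 and 2 (interaction adjusted p = 0.0070 and 0.023): it was 1.65 and 0.68 in set 1, and 0.48 and 0.07 in set 2. In set 2 SLC6A9 passed in COM (0.62), and its values were 0.38 in TN and 0.31 in DB. SLC1A4 and SLC6A9 were also higher in untreated set 2 than set 1, by 1.47 and 0.89. The 4 genes of the glycine cleavage system, GLDC, AMT, GCSH and DLD, passed in 0 comparisons, with 2 at an unadjusted p under 0.05 in TN, 1 in TK and 0 elsewhere.

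Among 14 tested folate carriers and folate enzymes outside the 9 genes, 3 rose in TK, 2 in TN, 1 in COM and 1 in DB, with 1 lower in each of these 4 forms and 0 passing in SPH. Of all genes 8.04% rose and 7.33% fell in TK, 6.84% and 4.88% in TN, and 3.94% and 2.42% in COM. In DB 5.92% rose and 4.10% fell, and in SPH 0.0804% and 0.0309%. A count of 1 of 14 is thus near the share of all genes in TK, TN, COM and DB. SLC25A32, the mitochondrial folate carrier, rose in TK (0.44, adjusted p = 0.00034), TN (0.39), COM (0.31) and DB (0.23), and untreated sets 1 and 2 differed by only 0.08 in it. ALDH1L1, the cytosolic relative of ALDH1L2, fell by 0.62 in TK (adjusted p = 0.00011) and 0.51 in TN (adjusted p = 0.00066), from 36.2 ± 1.93 CPM (SD, n = 7) in the controls to 23.8 ± 1.68 (n = 4) in TK. SLC19A1, the plasma membrane folate carrier, rose in TK alone (0.30, adjusted p = 0.0035). For ALDH1L1 and SLC25A32 the TK change also passed within set 2, at -0.57 and 0.42.

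Of the pathways fed by the one-carbon unit, purine synthesis had passing genes in TK and COM, and the methionine cycle in COM, TK and TN. The shares of all genes were 8.04% higher and 7.33% lower in TK, 6.84% and 4.88% in TN, and 3.94% and 2.42% in COM. Of 12 purine synthesis genes, 3 rose in TK, PRPS1 (0.33), ADSS2 (0.21) and PAICS (0.20), and PFAS fell by 0.35 in COM (adjusted p = 0.017). In DB, SPH and TN 0 of the 12 passed, with 5, 0 and 2 at an unadjusted p under 0.05. Of 10 tested genes of the methionine cycle and transsulfuration, 1 rose in COM, 1 in TK and 2 in TN, 3 fell in TK and 1 in TN, and 0 passed in DB and SPH, with 2 each at an unadjusted p under 0.05. AHCYL2 fell in TK (by 0.36) and TN (by 0.37), the latter by 0.73 in set 1 against -0.05 in set 2 (interaction adjusted p = 0.023). In addition, AHCY fell in TK (by 0.24), and MTRR, methionine synthase reductase, rose in TN (0.27) and TK (0.23). Within set 2 the MTRR values were 0.14 and 0.18 and did not pass. CBS rose in TN (0.51, but -0.0023 within set 2) and COM (0.48), with uncertainty because a near-identical copy can share its reads.

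Genes of the amino acid response rose in the forms in which PSAT1 and MTHFD2 did, and some also in TK. Of its 15 genes 13 rose in TN, 10 in COM, 9 in DB, 7 in TK and 1 in SPH, with 1 lower in TK, while 6.84%, 3.94%, 5.92%, 8.04% and 0.0804% of all genes rose and 7.33% fell in TK. The list medians were 0.70, 0.46, 0.31, 0.29 and 0.18 in that order. ATF4 itself averaged 580 ± 110 CPM (SD, n = 7) in the controls, 712 ± 30.2 (n = 4) in COM and 698 ± 21.2 (n = 4) in TN. It rose by 0.39 in COM (adjusted p = 0.0042), 0.37 in TN (0.0050) and 0.27 in DB (0.039), and stood at 0.06 in TK and 0.16 in SPH. In set 1 the ATF4 rise was 0.62 in COM, 0.62 in TN and 0.40 in DB, and in set 2 the values were 0.13, 0.04 and 0.10 and did not pass. The difference between the sets passed for TN (0.59, interaction adjusted p = 0.031) and not for COM or DB. CHAC1, a glutathione-degrading enzyme, rose by 2.18 in TN, 1.87 in both COM and DB and 1.29 in TK. In SPH its difference was 1.20 and did not pass (edgeR adjusted p = 0.21). Within set 1 alone, CHAC1 did pass in SPH, at 2.33 (edgeR adjusted p = 0.00023). CHAC1 stood at 0.49 in set 2 and 2.47 in set 3 in that form. Its effect also differed between sets 1 and 2, at 3.58 and 1.22 in TN, 3.24 and 0.91 in COM and 2.86 and 0.88 in DB (interaction adjusted p = 0.0014, 0.024 and 0.024), and within set 2 the TK value was 0.85. SLC7A11, the cystine transporter, rose by 1.37 in TN, 1.25 in COM, 0.97 in DB and 0.92 in TK. DDIT3 rose in COM (1.34), DB (1.20), TN (1.19) and SPH (0.87, adjusted p = 0.048), and STC2 in TN (1.48), COM (1.23), DB (0.87) and TK (0.87). For STC2 the values in sets 1 and 2 were 2.20 and 0.32 in TN, 1.81 and 0.66 in COM and 1.40 and 0.38 in DB (interaction adjusted p = 6.9e-05, 0.038 and 0.049), and TK had 0.64 in set 2. In untreated cells 12 of the 15 were higher in set 2 than in set 1, where 13.9% of all genes passed in either direction, with a list median of 0.86, and CHAC1 by 2.51. Of the 8 regulators, which include ATF4, NFE2L2 rose in TN (0.42), COM (0.38) and DB (0.32) and KEAP1 in TK (0.21). In sets 1 and 2 NFE2L2 stood at 0.38 and 0.59 in TN, 0.39 and 0.42 in COM and 0.31 and 0.12 in DB. MYC passed in no form, with differences from -0.10 in DB to 0.21 in TN (adjusted p = 0.089).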

How the data were processed

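Each library has 1 deposited RSEM gene table, and per the file headers it holds expected counts, TPM and transcript lengths. Per the submitters' processing notes, Trim Galore, Bowtie2 and RSEM were used with GRCh38; the sources used here give no versions or settings. The deposited expected counts were rounded, scaled by TMM and fitted with edgeR 4.0.16 (quasi-likelihood, R 4.3.3, limma 3.58.1; filterByExpr kept 16173 genes), with group and library set as terms, and in a second fit with a mean per group and set. A gene passed at a Benjamini-Hochberg adjusted p under 0.05. DESeq2 1.42.0, scaling, filter, length and left-out-library alternatives are given at the end. CPM was compared within a gene, deposited TPM, as the authors computed it, between genes. In data simulated for TN against controls over 16173 genes, changes were planted in 100 genes per size. The planted genes all averaged at least 5 CPM, which leaves out genes as low as ALDH1L2. Of the planted genes, 92% at a log2 change of 0.5 and 99% at 1 were recovered. The shares describe the planted changes only and may not carry over to the real TN effect. That effect differed between sets 1 and 2 in 5.81% of all genes. All 51 pairs of libraries within a group differed beyond sampling noise (chi-square per degree of freedom at least 2.463). The 9 genes, the lists and the tests were chosen with earlier results of these data known, so no list is independent support. Named were all 9 genes, ATF4, MYC, the up to 4 genes per list with the largest change among those that passed, and the 3 genes most like each of the 9; 1 gene named by this rule is not reported here. Counts of 27 libraries, 13115669 to 38672521 in total, limit precision for ALDH1L2 most.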

Additional observations from a re-analysis of the deposited data

Results flagged for a closer look

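Of 54 groups of 4 to 7 libraries checked, gene by gene, 3 had a library standing apart from the rest, and chance marks about 1 in 20. PSAT1 in COM C was 323 CPM, against 213 to 226 in the other COM libraries, and MTHFD2 in SPH C was 493 CPM, against 323 to 342 in the other SPH libraries. COM C and SPH C are the only libraries of their groups in set 2. ALDH1L2 in COM A was 0.572 CPM, the lowest of COM, at 16 counts.

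The effect of a crystal form differed between library sets 1 and 2 in 5 values, tested as an interaction in edgeR with p-values adjusted over all genes. In TN the log2 difference was 0.9 for PSAT1, 0.58 for PSPH, 0.43 for MTHFD2 and 0.47 for MTHFD1L, larger in set 1 in each. In DB it was 0.83 for PSAT1.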

How the results depend on the processing

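The numbers of the 9 genes that passed were 3 in COM, 3 in DB, 0 in SPH, 3 in TK and 5 in TN, 5 for the effect in set 1 against set 2, 14 for the pairs of forms and 6 for the untreated sets. Without the set term they were 0 in COM, 1 in DB, 1 in TK, 0 in TN and 3 for the pairs. Within set 2 alone they were 0 in COM, 0 in DB, 1 in TK and 1 in TN, and within set 3, 1 library against 1 control with the spread of the other groups, they were 1 in COM, DB and TN. The pairs with TK were also taken within set 2, chosen after seeing the data, and 0 of 8 values passed there. An offset for effective length left 1 in TK and 2 for the effect in set 1 against set 2, which was also 2 with DESeq2 size factors and 2 with no low-count filter. The cause was not tested. With TN C counted in set 1 the pairs gave 25. Leaving out 1 library gave 1 to 3 in COM (lowest without COM D), 1 to 3 in DB (lowest without DB A, DB B, DB D, Control A or Control G), 0 to 0 in SPH, 1 to 4 in TK (lowest without TK A or TK C), 3 to 5 in TN (lowest without TN A), 4 to 6 for the untreated sets (lowest without Control B), 8 to 23 for the pairs and 1 to 5 for the effect in set 1 against set 2. The last could not be fitted for every form without COM C, DB C, SPH C or TN C.

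Within set 2 alone the direction reversed for MTHFD1L in TN (-0.018) and PSAT1 in DB (-0.025). MTHFD1 in DB lost its call without any 1 of 11 libraries: Control A, C, E, F or G, DB A, B, C or D, or TK B or D. In TK it lost its call without Control A, D, E or G or any TK library. Replicate letters shared between groups were not taken to pair the libraries. Same-lettered deviations from group means had correlations from -0.158 to 0.446, and residuals after group and set from -0.37 to 0.143. In COM, DB, SPH and TN the letters follow the sets, so these values cannot decide whether libraries were paired. With the letter as a replicate block beside the set term, 1 gene passed in COM, 0 in DB, 1 in TK, 3 in TN and 3 among the pairs.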
